A study of Mus musculus with 56 samples.

Results

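The genes described here are 8 members of the TGF-beta pathway, namely Tgfb1, Tgfbr1, Tgfbr2, Smad2, Smad3, Smad7, Ski, and Skil. They were chosen by name, and their data are all the ChIP-seq peaks whose nearest promoter, as the deposited lists give it, belongs to one of them. All 8 of them had peaks, out of 20352 genes named in the 56 lists, and they held 2533 of 1610519 peaks. The study asked how IL-4 changes the chromatin of macrophages and their later answer to bacterial lipopolysaccharide (LPS). The cells were bone marrow-derived macrophages (BMDMs) from wild-type C57BL/6 mice aged 8 to 12 weeks, grown for 6 days with L929 supernatant, a source of the growth factor MCSF. In the first experiment, untreated BMDMs were compared with BMDMs given IL-4 (20 ng/ml) for 1 hr, in 2 samples each. It covered RNAPII-pS5 and RNAPII-pS2 (RNA polymerase II phosphorylated at serine 5 or serine 2 of its tail, marking initiation and elongation), the active mark H3K27Ac, the macrophage factor PU.1, the acetyltransferase p300, and the deacetylases HDAC1, HDAC2, and HDAC3. The second experiment covered RNAPII-pS5, RNAPII-pS2, and the NF-κB subunit p65 under 4 conditions with 2 samples per condition. These were no treatment (ctrl/ctrl), IL-4 for 24 hr (IL-4 PT/ctrl), LPS at 100 ng/ml for 1 hr (ctrl/LPS), and 24 hr of IL-4 followed by 1 hr of LPS (IL-4 PT/LPS). The study calls the samples biological replicates in some of its legends and the labels do not say whether they came from separate animals, so p-values measure only the spread between these samples. Whole cultures were measured, so fewer cells with a signal and less signal per cell cannot be told apart.

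TGF-beta is secreted in a latent complex, and once released it brings together a type II receptor (TGFBR2) and a type I receptor (TGFBR1). The type I receptor phosphorylates SMAD2 and SMAD3, which enter the nucleus with SMAD4 and bind regulatory regions. SMAD7 is an inhibitor that this signal itself induces, and SKI and SKIL are corepressors that hold SMAD target genes down. In macrophages the pathway is known for limiting inflammatory activation and for tissue repair.

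The peaks of a gene are not spread alike. Tgfbr2 had 742 peaks over the 56 lists, Tgfbr1 418, Smad3 405, Ski 325, Skil 282, Smad7 144, Smad2 128, and Tgfb1 89. Of the Tgfb1 peaks 0% were intergenic, against 70.2% of the Skil peaks, 67.2% of the Smad2 peaks, and 25.7% of the Smad3 peaks. Assignment to the nearest promoter reached 387 kb upstream of Tgfbr2, and some of the peaks upstream of Tgfbr1 lie in Col15a1, a collagen gene. In the GRCm38 annotation, Skil spans chr3:31095058-31122923, Tgfbr1 chr4:47353222-47414926, Ski chr4:155154075-155222535, and Tgfb1 chr7:25687002-25705077. Smad3 spans chr9:63646766-63757994, Tgfbr2 chr9:116087695-116175363, Smad7 chr18:75367365-75395935, and Smad2 chr18:76241090-76311748.

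Peak scores are on a −log10 scale (of p- or q-values, as inferred from the values), except for H3K27Ac, whose value is a signal of normalized tags. The value of a gene is the sum of its peaks' scores and the value of a region is the highest score in overlapping peaks. Changes are differences of log2 values, after centring each sample on the features shared by all samples of the antibody, so they are relative to the typical shared peak. A gene or region is called where the limma test gave a Benjamini-Hochberg adjusted p of at most 0.05. The lists held 8440 to 71027 peaks, and 1 p300 list stood apart with 44787 peaks against 66710 to 69360 in the other p300 lists. For RNAPII-pS2 after 1 hr, the peak names inside all 4 lists carry the treatment opposite to the label, and Cish, a gene that IL-4 induces, differed by a log2 value of -5.65 in the libraries labelled IL-4 (adjusted p = 0.0574). Klf4, Arg1, and Egr2, also taken as checks of the IL-4 treatment, differed there by -1.90, -1.44, and -1.12, and none was called. The labels were kept, and these libraries are named by their label. The label of the HDAC3 antibody carries the same catalogue number as that of the H3K27Ac antibody. The study's methods text repeats that number for HDAC3, while its reagent list gives HDAC3 a different one. RNAPII-pS5 promoter peaks marked 2 and 3 of 8 macrophage markers in the untreated replicates and 0 of the 4 markers of each of T cells, B cells, neutrophils, erythroid cells, and fibroblasts. A PU.1 peak was listed at 6 of the 8 macrophage markers, and also at 2 of 4 fibroblast, 1 and 2 of 4 B cell, 1 of 4 T cell, 1 of 4 erythroid, and 1 and 0 of 4 neutrophil markers in the 2 replicates.

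Stretches of 200 bases are given here at the centres of 4 regions described below. Each is the region of smallest adjusted p of its gene in the comparison named. Whether the changes there depend on these bases was not tested. They are the plus strand of mm10, read from the GRCm38 reference, and capitals mark matches, on either strand, to the STAT pattern (TTC and GAA separated by 4 bases) or the PU.1 pattern (GAGGAA). The NF-κB pattern (GGG and CC separated by 5 bases) was searched in the same way and matched none of the 4 stretches, and the Smad3 intron and Skil stretches matched no pattern. The first lies at chr9:63780687-63780886, upstream of Smad3, where H3K27Ac fell with IL-4. The second lies at chr9:63743984-63744183, in intron 1 of Smad3, where p65 and RNAPII-pS2 were gained with LPS. The third lies at chr3:31101019-31101218, in an intron of Skil, where p65 was gained with LPS. The fourth lies at chr4:47287555-47287754, upstream of Tgfbr1 in an intron of Col15a1, where p65 rose with LPS and further with IL-4 pretreatment.
Smad3 upstream region: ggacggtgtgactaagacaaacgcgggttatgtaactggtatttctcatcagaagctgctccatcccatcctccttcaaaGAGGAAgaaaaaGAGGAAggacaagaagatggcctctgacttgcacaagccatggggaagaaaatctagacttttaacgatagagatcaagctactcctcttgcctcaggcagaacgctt
Smad3 intron 1 region: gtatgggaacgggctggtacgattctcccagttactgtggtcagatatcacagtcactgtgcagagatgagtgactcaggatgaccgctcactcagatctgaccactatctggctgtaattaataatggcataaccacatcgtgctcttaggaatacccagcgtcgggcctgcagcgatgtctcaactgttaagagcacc
Skil intron region: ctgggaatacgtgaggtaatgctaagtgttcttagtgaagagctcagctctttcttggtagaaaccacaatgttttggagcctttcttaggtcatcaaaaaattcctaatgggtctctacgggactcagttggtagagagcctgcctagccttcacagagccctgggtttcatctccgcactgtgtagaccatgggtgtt
Tgfbr1 upstream region: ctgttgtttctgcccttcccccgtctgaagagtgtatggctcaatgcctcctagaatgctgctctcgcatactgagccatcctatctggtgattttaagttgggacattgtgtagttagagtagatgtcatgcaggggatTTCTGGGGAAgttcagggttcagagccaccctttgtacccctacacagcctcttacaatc

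In windows of 200 bases at the centres of all 51410 p65 regions, the NF-κB pattern was present in 35.1%, the STAT pattern in 8.25%, and the PU.1 pattern in 34.2%. Among the 82 p65 regions of the 8 genes the shares were 37.8%, 12.2%, and 36.6%. Over 31999 H3K27Ac windows the NF-κB pattern was present in 29.1%, the STAT pattern in 6.43%, and the PU.1 pattern in 30.1%. In the 44 windows of the 8 genes the shares were 38.6%, 4.55%, and 43.2%. A match is a description of letters, and no match says only that these letters are not in this window.

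One hour of IL-4 changed H3K27Ac at 4 of the 8 genes, 2 up and 2 down. At Smad3, the receptor-activated transcription factor, the summed signal was 316.4 and 325.9 in untreated BMDMs and 167.8 and 176 after IL-4. Both IL-4 samples were below both untreated samples, a log2 change of -0.90 (SE 0.0606, adjusted p = 0.00550). At Tgfbr1, the type I receptor, the signal was 875.7 and 859.1 before and 665.3 and 680 after IL-4, a log2 change of -0.36 (SE 0.0510, adjusted p = 0.0181). Smad2, the other receptor-activated factor, rose from 190.3 and 186.2 to 278.7 and 273.9, a log2 change of 0.56 (SE 0.0493, adjusted p = 0.00818). Ski rose from 1110 and 1046 to 1310 and 1296, a log2 change of 0.28 (SE 0.0553, adjusted p = 0.0354). For all 4 genes the groups did not overlap. The same held for Skil and Smad7, which were not called, and the share over all genes was not counted.

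The other 4 genes did not pass. Skil had 800.1 and 786.7 before and 886 and 912.9 after IL-4 (adjusted p = 0.0736). Tgfb1, the ligand, had 614.2 and 596.4 before and 589.7 and 612.7 after, and these groups overlap. Tgfbr2 had 1709 and 1501 before and 1653 and 1559 after, and Smad7 had 232.1 and 228.3 before and 200.7 and 216.2 after. Of all 13035 genes tested for H3K27Ac, 32.8% were called, so 4 of 8 is not far from the background. Leaving out any 1 of the 4 samples kept the call of Smad3 (adjusted p from 0.0389 to 0.0452), ended those of Tgfbr1 and Ski in all 4 cases, and ended that of Smad2 except without the second IL-4 sample.

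**Figure D1:**
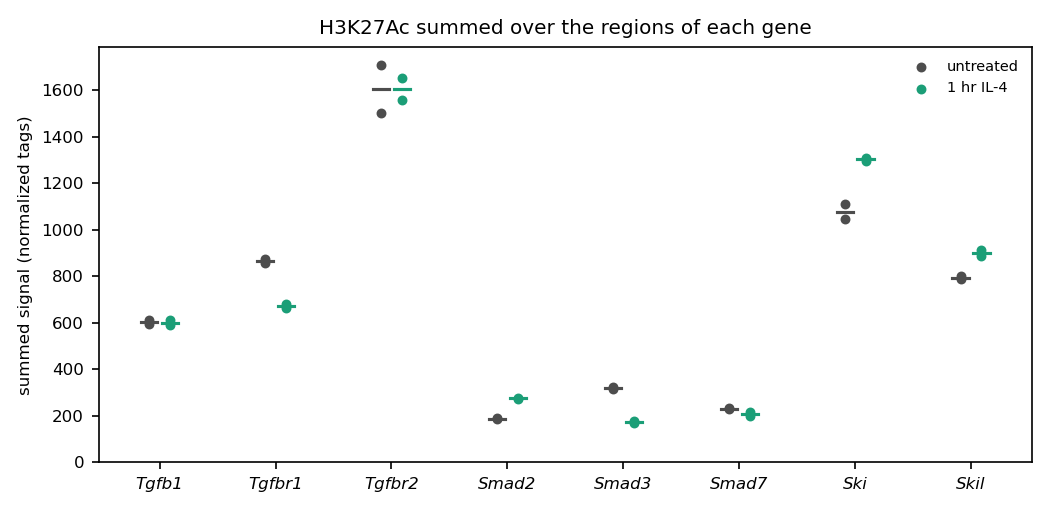
Summed H3K27Ac signal (normalized tags, vertical axis) of each of the 8 genes in the 2 untreated and 2 IL-4-treated samples, with points for samples and a line for the mean. The IL-4 samples of Smad3 sit at 167.8 and 176, below the untreated samples at 316.4 and 325.9.

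By region, H3K27Ac was higher at 6 and lower at 13 of the 43 tested regions of the 8 genes, where 40.3% of all 28929 regions were called. At Smad3 the decrease was spread over the locus. The region 22.8 kb upstream, the first sequence above, went from 91.8 and 90.3 to 39.4 and 40.3 (log2 change -1.14, adjusted p = 0.00174). A pair of regions in intron 1 lost signal, from 48.8 and 50.6 to 21.5 and 20.5 at 26.5 kb inside the gene (log2 change -1.19, adjusted p = 0.00230) and from 63.8 and 67.2 to 34.8 and 33.3 at 51.9 kb (log2 change -0.89, adjusted p = 0.00456). The start-site region of Smad3 went from 49.1 and 50.9 to 32.4 and 37.8 (adjusted p = 0.0359). In all, 5 of the 6 Smad3 regions were lower.

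**Figure D2:**
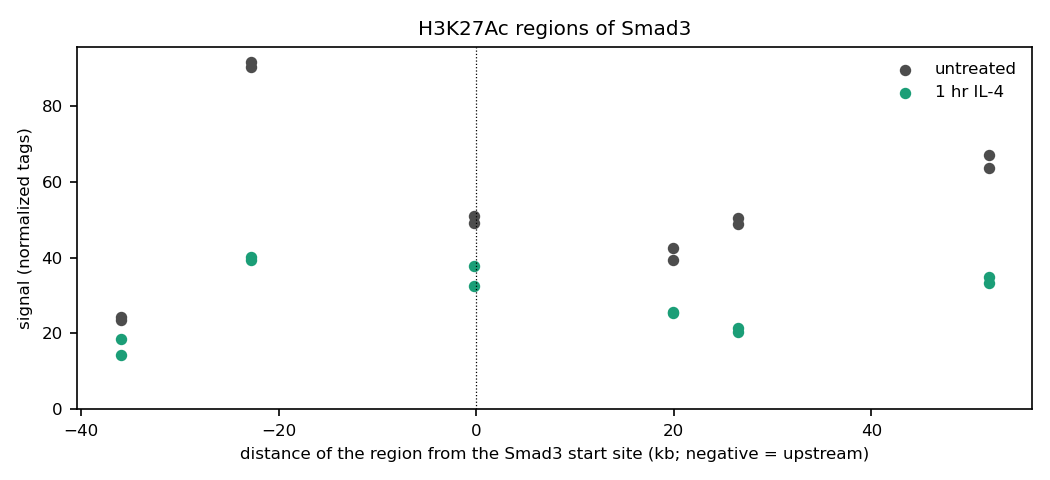
H3K27Ac signal (normalized tags, vertical axis) of the Smad3 regions against their distance from the start site (kb, horizontal axis), for 2 untreated and 2 IL-4-treated samples. At the region 22.8 kb upstream the untreated samples are at 91.8 and 90.3 and the IL-4 samples at 39.4 and 40.3.

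The other antibodies at the Smad3 region 22.8 kb upstream gave mixed values. RNAPII-pS5 was 12.21 and 19.99 in untreated and 6.56 and 6.67 in IL-4-treated BMDMs. PU.1 was 47.72 and 31.3 in untreated and 45.61 and 59.11 in IL-4-treated BMDMs, so these groups overlap. HDAC1 was 16.85 and 14.24 before and 10.51 and 21.22 after IL-4, and HDAC3 was 15.87 and 8.18 before and 20.28 and 13.13 after. No RNAPII-pS5 or PU.1 change at this region was called.

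At Smad2 the direction differed by region. The region 4.0 kb upstream of the start site rose from 97.6 and 92.8 to 248.3 and 261.7 (log2 change 1.47, adjusted p = 0.00129). A region at the start site was listed at 92.7 and 93.4 in untreated BMDMs and was not listed after IL-4 (log2 change -3.30 with the missing values set to the lowest signal in the lists, adjusted p = 0.000125). RNAPII-pS5 was present at that start site in every sample, at 31.83 and 33.03 before and 32.01 and 55.07 after IL-4. When intergenic regions were left out, the Smad2 change turned to -2.91, since the region 4.0 kb upstream is intergenic. At the same region 4.0 kb upstream p300 was 17.83 and 43.41 before and 140.65 and 135.62 after IL-4, and PU.1 was 5.76 and 9.63 before and 31.63 and 26.3 after. These are scores before centring, and neither change was called.

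Ski also held regions of both directions. The region 13.1 kb upstream rose from 656.9 and 619.8 to 993.7 and 995.6 (log2 change 0.69, adjusted p = 0.00600), while the region 43.5 kb inside Ski intron 1 fell from 173.4 and 154.3 to 106.6 and 99.3 (log2 change -0.62, adjusted p = 0.0163, and up to 0.0678 with 1 sample left out). Without intergenic regions the Ski change turned to -0.52. At the upstream Ski region p300 was 24.17 and 53.18 before and 217.1 and 222.99 after IL-4, before centring and not called.

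Skil rose 33.7 kb upstream of its start, from 180.8 and 170.3 to 252.6 and 240.9 (adjusted p = 0.0120, and up to 0.0691 with 1 sample left out), and fell 11.6 kb inside the gene, from 64.5 and 79.7 to 41.7 and 48.6 (adjusted p = 0.0472, up to 0.126). The Tgfbr1 start-site region fell from 203.2 and 206.8 to 134.8 and 155.5 (adjusted p = 0.0328, up to 0.126). At Tgfbr2, the region 73.5 kb inside the gene rose from 147.3 and 121.5 to 220.2 and 202.7 (adjusted p = 0.0227, up to 0.0749), and the region 190.9 kb upstream fell from 139.1 and 152.5 to 96.4 and 104.8 (adjusted p = 0.0246, up to 0.0972). The Smad7 region in the gene, 25.0 kb from its start, fell from 64.8 and 59 to 43.4 and 44.4 (adjusted p = 0.0207, up to 0.0888). None of these calls at Skil, Tgfbr1, Tgfbr2, and Smad7 held with each sample left out in turn, whereas those of the Smad3 regions at 22.8 kb upstream and at 26.5 and 51.9 kb inside, of the Smad2 region 4.0 kb upstream, and of the upstream Ski region did. The call of the Smad2 start-site region held in the 2 fits that could be run, those without 1 of the untreated samples. Another Smad2 region, 13.6 kb upstream, was unlisted before and 13.2 and 12.2 after IL-4 (adjusted p = 0.0137), and its call held in neither of the 2 fits that could be run (adjusted p up to 0.0745).

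For RNAPII-pS5 after 1 hr of IL-4, 0 of the 8 genes were called, where 1.39% of 13481 genes were. Smad3 had summed scores of 114.59 and 94.31 in untreated and 55.26 and 57.3 in IL-4-treated BMDMs, which do not overlap (log2 change -0.84, adjusted p = 0.181). At an unadjusted p of at most 0.05, 1 of 8 genes passed, where 14.6% of all genes did. Among the 43 regions tested 2 were lower, where 5.43% of regions were called. They lie 97.6 kb downstream of the Tgfbr2 start, at 16.55 and 8.15 before and unlisted after IL-4 (adjusted p = 0.0410), and 59.2 kb inside Ski, at 6.37 and 6.12 before and unlisted after (adjusted p = 0.0446). Neither call held when 1 of the 2 IL-4 samples was left out.

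In the RNAPII-pS2 libraries, 0 of 8 genes were called by adjusted p, where 0 of all 10617 genes were. At the unadjusted threshold 1 of 8 passed, where 16.1% of all genes did. Smad3 had no peak and 4.07 in the libraries labelled untreated, and 12.88 and 12.09 in the libraries labelled IL-4 (adjusted p = 0.106). Since the peak names carry the opposite treatment, no direction is drawn from these values. PU.1 gave 0 of 8 genes by adjusted p, where 0 of all 15653 genes were called. Smad7 had PU.1 scores of 19.14 and 14.1 before and 8.86 and 7.03 after IL-4 (adjusted p = 0.271). At the unadjusted threshold 1 of 8 passed for PU.1, against 10.2% of all genes.

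For p300, 0 of 8 genes were called, where 0 of all 15708 genes were. At the unadjusted threshold 4 of 8 passed, where 25.8% of all genes did. Smad2 had summed p300 scores of 27.37 and 88.12 before and 222.08 and 202.9 after IL-4 (log2 change 1.26, adjusted p = 0.0766). The first untreated p300 list was the one with few peaks, and its part in these values was not tested further than by leaving it out. Without it the change at Smad2 was 1.26 (adjusted p = 0.105), that at Smad7 -1.05 (adjusted p = 0.125), and that at Ski 0.72 (adjusted p = 0.138). At Smad3 the direction depended on the centring, with a log2 change of -0.56 with it and 0.29 without, and at Smad7 the size did, with -1.03 and -0.18.

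By region, 0 of 21 RNAPII-pS2, 0 of 90 PU.1, and 0 of 92 p300 regions were called. The shares over all regions were 0%, 0%, and 2.46%. The p300 region result did not stay the same when the first untreated list was left out, in a fit with 1 untreated sample.

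Deacetylase peaks did not pass at any of the 8 genes, nor at any of 44 HDAC1, 48 HDAC2, and 30 HDAC3 regions. For each of these 3 antibodies 0 of all genes tested and 0 of all regions tested were called. For HDAC1, HDAC2, and HDAC3, 0 genes passed even the unadjusted threshold, where 8.86%, 9.47%, and 15.4% of all genes did. HDAC3 at Ski stood at 41.65 and 39.77 before and 110.03 and 91.36 after IL-4, a centred log2 change of 0.88 (adjusted p = 0.424), and the smallest adjusted p among the 7 genes tested was 0.347. HDAC1 at Ski was 57.69 and 52.07 before and 36.61 and 35.66 after IL-4, a centred log2 change of -0.14 (adjusted p = 0.941), while shared HDAC1 genes shifted by -0.46. Smad2 had 1 HDAC3 peak in 4 samples and was not tested.

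With LPS for 1 hr, the summed p65 scores of both ctrl/LPS samples were above those of both ctrl/ctrl samples at all 8 genes before centring. The share of all genes separated in this way was not counted, while the scores of shared p65 genes rose by a median of 1.64 log2 units. After centring, Smad2 rose and Tgfb1 fell, and the other 6 genes did not pass. Smad2 had no p65 peak and 2.89 in ctrl/ctrl and 40.92 and 43.91 in ctrl/LPS, and it rose by 2.81 relative to that shift (SE 0.382, adjusted p = 0.00486). Without intergenic peaks the Smad2 change was 1.10 and was not called (adjusted p = 0.160), without centring it was 4.45, and with missing peaks set 4 times as high it was 1.38, both called. Skil had 70.83 and 89.87 in ctrl/ctrl and 224.26 and 229.01 in ctrl/LPS, and Smad3 had 93.05 and 76.91 in ctrl/ctrl and 245.72 and 203.47 in ctrl/LPS, and neither was called after centring. Tgfb1 had 43.87 and 38.04 in ctrl/ctrl and 65.77 and 62.2 in ctrl/LPS, which is higher, but relative to the other genes it was lower by a log2 change of -0.99 (adjusted p = 0.0465), and without centring it was higher by 0.65 and not called. Among all 11184 genes 29.1% were called, against 2 of 8 here. The call of Tgfb1 was lost without any of 6 of the 8 samples, that is, any sample outside IL-4 PT/ctrl, with adjusted p up to 0.142.

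**Figure D3:**
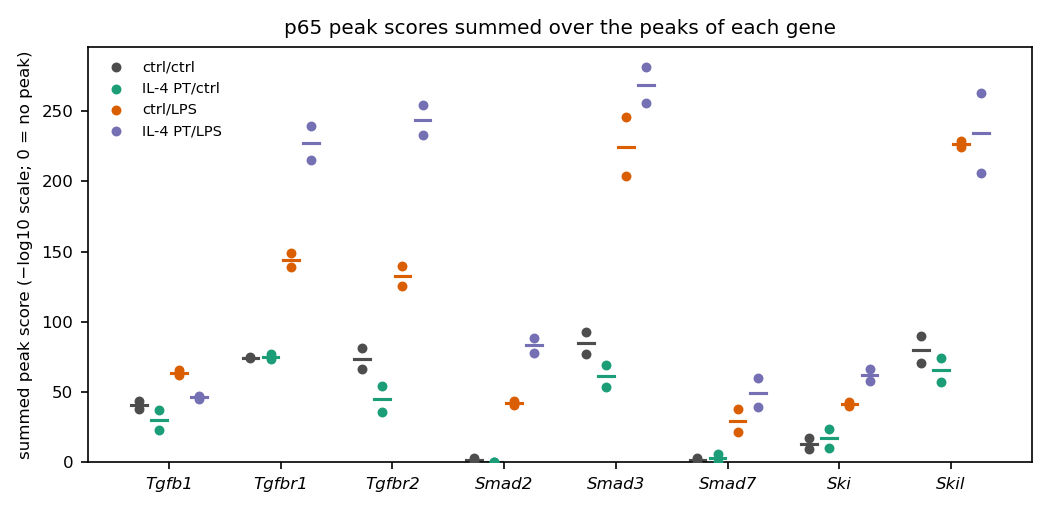
Summed p65 peak scores (−log10 scale, vertical axis, 0 where no peak was listed) of the 8 genes in the 4 conditions, 2 samples each, with points for samples and a line for the mean. The ctrl/LPS samples of Skil are at 224.26 and 229.01, above the ctrl/ctrl samples at 70.83 and 89.87.

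Of the 55 p65 regions tested, 18 were higher and 5 lower with LPS, where 37.9% of all regions were called. In intron 1 of Smad3, 13.9 kb inside the gene (the second sequence above), p65 was unlisted in ctrl/ctrl and 15.9 and 11.63 in ctrl/LPS (log2 change 2.33, adjusted p = 0.000924). At the same place RNAPII-pS2 was unlisted in ctrl/ctrl and 30.15 and 21.42 in ctrl/LPS (log2 change 4.0, adjusted p = 0.000384), and RNAPII-pS5 was 8.71 and 6.67 in ctrl/LPS (log2 change 2.58, adjusted p = 0.00114). In the 1 hr IL-4 experiment the place held 1 p300 peak, at 8.59, and no H3K27Ac region. A log2 change from an unlisted peak depends on the value given to missing peaks and is not a bound.

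**Figure D4:**
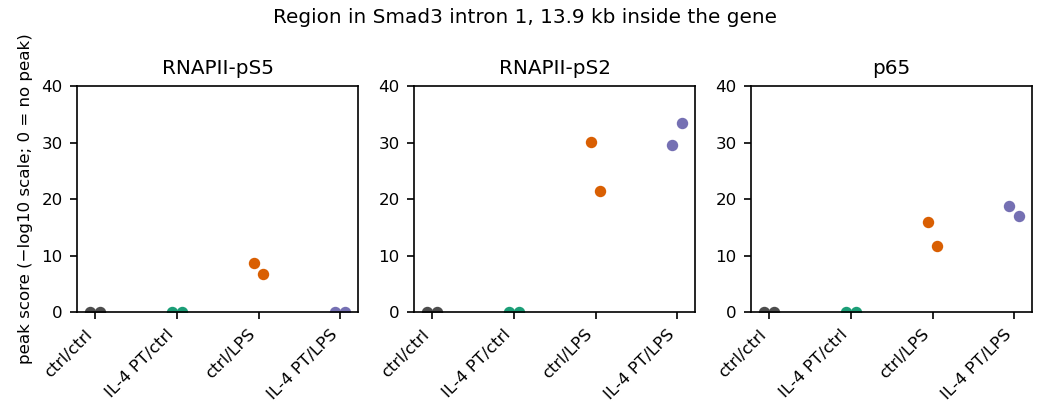
Peak scores (−log10 scale, vertical axis, 0 where no peak was listed) of RNAPII-pS5, RNAPII-pS2, and p65 at the Smad3 intron 1 region in the 4 conditions, 2 samples each. RNAPII-pS5 is listed in ctrl/LPS alone, at 8.71 and 6.67, while p65 and RNAPII-pS2 are listed in both LPS conditions.

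Skil gained p65 in an intron, 6.1 kb inside the gene (the third sequence above), from unlisted to 36.84 and 26.2 (log2 change 3.52, adjusted p = 0.000406), and 33.7 kb upstream, from unlisted to 31 and 35.09 (adjusted p = 0.00639). The latter is the place where H3K27Ac rose with IL-4. A region 2.9 kb upstream of Smad2 went from unlisted to 32.37 and 23.92 (log2 change 3.36, adjusted p = 0.000306). The region 65.7 kb upstream of Tgfbr1 (the fourth sequence above) went from unlisted to 14.52 and 12.91 (adjusted p = 0.000440), and the region 59.0 kb inside Smad3 from unlisted to 27.45 and 18.97 (adjusted p = 0.00870). Smad7, 25.1 kb upstream, went from unlisted to 9.47 and 6.96 (adjusted p = 0.0113, and up to 0.0624 without 1 of the ctrl/ctrl samples). At the start-site region of Tgfbr2 p65 was unlisted in ctrl/ctrl and 4.1 and 2.43 in ctrl/LPS.

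RNAPII-pS5 under LPS was called at 1 of 8 genes, where 27.7% of 11749 genes were. Ski fell from 30.45 and 32.77 in ctrl/ctrl to 11.22 and 13.1 in ctrl/LPS (log2 change -1.06, SE 0.293, adjusted p = 0.0410). The call did not hold without either ctrl/ctrl, either ctrl/LPS, or either IL-4 PT/LPS sample (adjusted p up to 0.153), and with intergenic peaks left out the change was 1.07. Tgfb1 had 8.83 and 14.57 in ctrl/ctrl and 18.76 and 23.15 in ctrl/LPS (adjusted p = 0.0677). The genes whose RNAPII-pS5 pattern over the 8 samples was most like that of Ski, among 5015 genes with a peak in all 8, were F13a1 (Pearson r of 0.979) and Rgs2 (r of 0.976), which are descriptions over samples of 4 conditions.

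**Figure D5:**
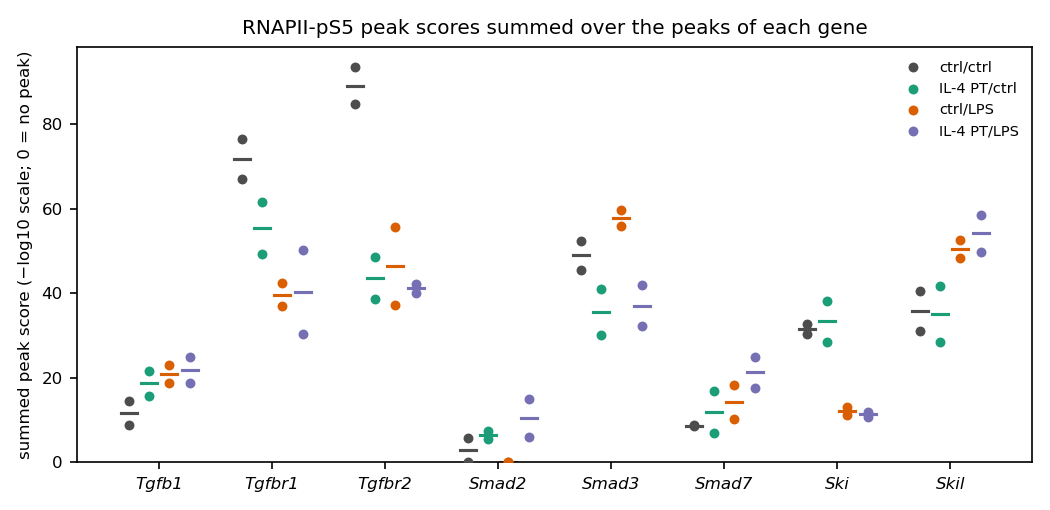
Summed RNAPII-pS5 peak scores (−log10 scale, vertical axis, 0 where no peak was listed) of the 8 genes in the 4 conditions, 2 samples each, with points for samples and a line for the mean. Ski is at 30.45 and 32.77 in ctrl/ctrl and at 11.22 and 13.1 in ctrl/LPS.

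By region, RNAPII-pS5 was higher at 7 and lower at 6 of 41 regions, where 35.9% of all regions were called. Upstream of Ski, RNAPII-pS5 was lost 1.1 kb (13.19 and 12.07 to unlisted, adjusted p = 0.00177) and 12.9 kb (10.53 and 12.71 to unlisted, adjusted p = 0.00998, and up to 0.0544 with 1 sample left out) from its start. Within Ski it was gained 35.2 kb from the start, from unlisted to 11.22 and 6.98 (adjusted p = 0.0196, and up to 0.0862 with 1 sample left out). In Skil, 0.8 kb inside the gene, it rose from unlisted to 11.52 and 12 (log2 change 3.21, adjusted p = 0.00427). At Smad7, 25.2 kb upstream, it rose from unlisted to 10.33 and 9.47 (adjusted p = 0.00913), at the place where p65 was gained.

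RNAPII-pS2 under LPS was called at 0 of 8 genes, where 28.3% of 13094 genes were. At the unadjusted threshold 2 of 8 passed, where 41.6% of all genes did. Smad3 had 180.95 and 142.95 in ctrl/ctrl and 279.88 and 264.25 in ctrl/LPS. Smad7 had 21.51 and 23.83 in ctrl/ctrl and 45.03 and 36.76 in ctrl/LPS (adjusted p = 0.0939). Among 60 regions 9 were higher and 11 lower, where 39.4% of all regions were called. The largest gain among the regions named here was 320.5 kb upstream of Tgfbr2, from unlisted to 25.91 and 29.36 (log2 change 4.12, adjusted p = 0.000401). In Tgfbr2 intron 1, 22.3 kb inside the gene, RNAPII-pS2 went from unlisted to 15.66 and 6.52 (adjusted p = 0.00395). The Tgfbr1 start-site region was listed in ctrl/ctrl alone, at 8.8 and 5.47 (adjusted p = 0.00102). In other processing settings the adjusted p reached 0.346 at the Tgfbr2 intron 1 region and 0.101 at the Tgfbr1 start site, while the call 320.5 kb upstream of Tgfbr2 held.

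IL-4 for 24 hr without LPS left 0 of the 8 genes called for any of the 3 antibodies. The comparison shares the ctrl/ctrl samples with that of LPS. The shares called over all genes were 9.04% (RNAPII-pS5), 15.4% (RNAPII-pS2), and 10.7% (p65). At the unadjusted threshold 1, 1, and 0 of the 8 genes passed, where 22.4%, 30.9%, and 23.5% of all genes did. Tgfbr2 had RNAPII-pS5 scores of 84.76 and 93.65 in ctrl/ctrl and 38.6 and 48.54 in IL-4 PT/ctrl (log2 change -1.12, adjusted p = 0.0826). Ski had RNAPII-pS2 scores of 64.41 and 52.08 in ctrl/ctrl and 33.72 and 35.78 in IL-4 PT/ctrl (adjusted p = 0.109).

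At single regions 24 hr of IL-4 gave 1 higher and 3 lower of 39 RNAPII-pS5 regions, 2 higher and 10 lower of 54 RNAPII-pS2 regions, and 1 higher and 1 lower of 35 p65 regions. The shares over all regions were 19.8%, 27.9%, and 13.1%. The RNAPII-pS5 region 3.0 kb upstream of Tgfbr2 was 5.7 and 6.87 in ctrl/ctrl and unlisted in IL-4 PT/ctrl (adjusted p = 0.00244). RNAPII-pS2 at the Tgfbr1 start site was lost as well, from 8.8 and 5.47 (adjusted p = 0.00214). The p65 region 6.1 kb upstream of Tgfbr1 was unlisted in ctrl/ctrl and 7.73 and 7.34 in IL-4 PT/ctrl (log2 change 2.72, adjusted p = 0.00210). None of these calls held in every processing setting. The adjusted p reached 0.640 at the Tgfbr2 region, 0.443 at the Tgfbr1 start site, and 0.143 at the p65 region.

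IL-4 pretreatment under LPS (IL-4 PT/LPS against ctrl/LPS) left 0 of the 8 genes called. The comparison shares the ctrl/LPS samples with that of LPS. The shares called over all genes were 12.7% (RNAPII-pS5), 9.88% (RNAPII-pS2), and 12.6% (p65). At the unadjusted threshold 2, 2, and 1 of the 8 genes passed, where 29.9%, 25.5%, and 25.9% of all genes did. Smad3 had RNAPII-pS5 scores of 59.79 and 56.02 in ctrl/LPS and 41.92 and 32.35 in IL-4 PT/LPS (adjusted p = 0.102). Tgfb1 had p65 scores of 65.77 and 62.2 in ctrl/LPS and 45.35 and 47.47 in IL-4 PT/LPS (adjusted p = 0.0859). Tgfbr2 had 125.35 and 139.63 in ctrl/LPS and 232.73 and 254.51 in IL-4 PT/LPS, in a setting where shared p65 genes rose by 0.50 log2 units, and it was not called.

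RNAPII-pS5 was higher at 3 and lower at 6 of 37 regions, where 20.3% of all regions were called, and these lie at Smad3, Tgfbr2, Smad2, and Tgfbr1. At the Smad2 start site it was unlisted in ctrl/LPS and 6.06 and 8.99 in IL-4 PT/LPS (adjusted p = 0.00399). The region 6.1 kb upstream of Tgfbr1 went from 5.72 and 5.33 to unlisted (adjusted p = 0.00313). The Smad3 intron 1 region 13.9 kb inside the gene went from 8.71 and 6.67 to unlisted (adjusted p = 0.00242), while p65 there was 18.79 and 17.08 and RNAPII-pS2 29.55 and 33.44 in IL-4 PT/LPS. In the same intron, 26.4 kb inside Smad3, RNAPII-pS5 went from 6.68 and 14.04 to unlisted (adjusted p = 0.00681). The start-site region of Smad3 was unlisted in ctrl/LPS and 8.59 and 9.02 in IL-4 PT/LPS (adjusted p = 0.0176, and up to 0.0779 with 1 sample of either group left out). The region 3.0 kb upstream of Tgfbr2 went from 12.93 and 11.69 to unlisted (adjusted p = 0.00225), and this call held in every processing setting. In other settings the adjusted p reached 0.553 at the Smad2 start site and 0.282 at the Tgfbr1 region. It reached 0.0729 and 0.113 at the Smad3 regions 13.9 and 26.4 kb inside the gene.

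RNAPII-pS2 was higher at 3 and lower at 3 of 59 regions, where 21.7% of all regions were called, and p65 was higher at 12 and lower at 2 of 63, where 31.8% were. The p65 region 65.7 kb upstream of Tgfbr1 rose from 14.52 and 12.91 to 34.29 and 37.81 (log2 change 1.13, adjusted p = 0.00490), and RNAPII-pS2 there went from unlisted to 8.43 and 8.39 (adjusted p = 0.000879). The p65 region 2.9 kb upstream of Smad2 rose from 32.37 and 23.92 to 63.3 and 72.74 (adjusted p = 0.0164, and up to 0.148 without 1 of the IL-4 PT/LPS samples). A p65 region in Tgfb1 intron 5, 14.4 kb inside the gene, was listed in ctrl/LPS alone, at 8.77 and 5.56 (adjusted p = 0.000860 against IL-4 PT/LPS).

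The interaction of pretreatment and LPS asks whether the response to LPS differed with IL-4. At the gene level 0 of 8 were called for each antibody, where 6.11% (RNAPII-pS5), 6.38% (RNAPII-pS2), and 7.42% (p65) of all genes were. At the unadjusted threshold 0, 0, and 1 of the 8 passed, where 22.6%, 22.4%, and 22.3% of all genes did. By region, 3 were higher and 2 lower of 45 RNAPII-pS5 regions, 5 higher and 0 lower of 65 RNAPII-pS2 regions, and 11 higher and 3 lower of 63 p65 regions. The shares over all regions were 17.1%, 19.7%, and 23.2%.

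The rest of the pathway was counted from a list of 46 genes (other ligands, receptors, SMADs, latency proteins, ubiquitin ligases, and targets). After 1 hr of IL-4, 6 of the 33 genes tested rose and 8 fell in H3K27Ac, where 32.8% of all genes were called. Id1, a target gene, rose by a log2 change of 2.04 (adjusted p = 0.00371) and Lrrc32, which anchors latent TGF-beta on the cell surface, rose by 1.18 (adjusted p = 0.00632). Smad6, an inhibitory SMAD, changed by -0.48 (adjusted p = 0.0154). The median over the list was -0.04, and -0.01 over all genes.

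Under LPS 6 of 32 rose and 3 fell in RNAPII-pS5, 10 of 35 rose and 3 fell in RNAPII-pS2, and 13 of 35 rose and 2 fell in p65, where 27.7%, 28.3%, and 29.1% of all genes were called. The list's medians were 0.24, 0.73, and 0.96, and those of all genes -0.45, -0.27, and 0.17. Furin, a protease that matures TGF-beta, rose in all 3, by 1.64 in RNAPII-pS5 (adjusted p = 0.00912), 1.67 in RNAPII-pS2 (adjusted p = 0.00623), and 2.16 in p65 (adjusted p = 0.00253). Pmepa1, a target gene that inhibits the pathway, fell in RNAPII-pS5 (-2.43, adjusted p = 0.00690) and RNAPII-pS2 (-1.72, adjusted p = 0.00420). Inhba, which encodes an activin subunit, rose with 24 hr of IL-4 in RNAPII-pS5 by 4.02 (adjusted p = 0.0202), in RNAPII-pS2 by 2.70 (adjusted p = 0.00675), and in p65 by 2.99 (adjusted p = 0.0146).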

How the data were processed

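ChIP-seq of BMDMs was analysed from 56 deposited peak lists of 9 antibodies, grouped by the sample labels with 2 samples per group. The submitters' processing notes name BWA 0.7.10, SAMtools 0.1.19, MACS2 2.0.10, and HOMER 4.2. The authors aligned reads to mm10, called peaks in each sample with MACS2, filtered them against the ENCODE blacklist, and named the nearest gene with HOMER. The deposited MACS2 scores are −log10 p- or q-values, as inferred from the values, and the deposited H3K27Ac values are a signal of normalized tags from HOMER's findPeaks. No input control is stated in the sources used here. Depth is unknown, and scores of this type rise with it.

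Scores were summed per gene, or the highest was taken per merged region, in Python 3.11.15. Missing peaks were set to the lowest score in the antibody's lists. Log2 values were centred on the median of features shared by all samples. limma 3.58.1 (R 4.3.3) was fitted per antibody and experiment over all genes or regions with a peak in at least 2 samples, with Benjamini-Hochberg adjustment over all of them. After the files were seen, features with no peak in any compared sample were left untested in that comparison, since the centring gave them a change. The fit was tested on simulated data: calls had the right sign, but many changes of 1, 2, or 4 log2 units in the LPS experiment were not called. With 200 features changed, 53% of changes of 4 units were called for RNAPII-pS5 genes and 36.4% for p65 regions. With 3738 genes and 11268 regions changed, the shares were 80.4% and 74.7%. An uncalled gene is therefore not shown to be unchanged.

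The members and lists were chosen with earlier results of these data known. Named regions were those at start sites and at most 3 called regions of largest change per gene and comparison, and others named were chosen after their values were seen. Alternatives were another centring, floor, filter, peak rule, or trend, a replicate block, and leaving out each sample. Reads were not analysed here. Some items are not reported here.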

Additional observations from a re-analysis of the deposited data

Results flagged for a closer look

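At 24 regions of the 8 genes the response to LPS differed between BMDMs with and without IL-4 pretreatment by the interaction term of limma (adjusted p from 0.00472 to 0.0473). They come from 45 RNAPII-pS5, 65 RNAPII-pS2, and 63 p65 regions tested. Over all regions 17.1%, 19.7%, and 23.2% were called, so the count does not set these genes apart. The value in brackets is the log2 response with pretreatment minus that without. For RNAPII-pS5 these were Smad2 0.7 kb upstream of its start (2.18), Tgfbr1 6.1 kb upstream of its start (-1.59), Smad3 13.9 kb downstream of its start (-2.58), Tgfbr2 73.4 kb downstream of its start (1.77), and Tgfbr2 22.3 kb downstream of its start (2.23). For RNAPII-pS2 they were Smad7 18.7 kb upstream of its start (2.44), Skil 10.9 kb upstream of its start (1.74), Tgfbr1 65.6 kb upstream of its start (2.60), Tgfbr1 0.5 kb upstream of its start (2.33), and Tgfbr2 116.7 kb downstream of its start (1.77). For p65 they were Smad7 24.2 kb upstream of its start (1.89), Smad2 38.8 kb upstream of its start (1.76), Skil 11.7 kb downstream of its start (-3.29), Tgfbr1 65.7 kb upstream of its start (0.93), Tgfbr1 6.1 kb upstream of its start (-2.33), Tgfbr1 39.0 kb downstream of its start (1.84), Ski 9.8 kb downstream of its start (1.66), Ski 6.4 kb downstream of its start (1.27), Tgfb1 14.4 kb downstream of its start (-2.88), Smad3 45.4 kb upstream of its start (1.63), Tgfbr2 97.7 kb downstream of its start (2.35), Tgfbr2 22.6 kb upstream of its start (2.89), Tgfbr2 68.5 kb upstream of its start (1.83), and Tgfbr2 163.2 kb upstream of its start (3.05). Except for the Skil region 10.9 kb and the Tgfbr2 p65 region 68.5 kb upstream, each was unlisted in both samples of at least 1 condition, so its value depends on the score given to missing peaks. The Tgfbr1 RNAPII-pS2 region 0.5 kb upstream was listed in ctrl/ctrl alone. The Smad3 RNAPII-pS5 region 13.9 kb and the Tgfb1 p65 region 14.4 kb downstream were listed in ctrl/LPS alone. At these regions the response with pretreatment compared missing peaks only and was not measured. Shared p65 regions rose by 1.04 log2 units with LPS, and the 2 IL-4 PT/LPS lists held 36738 and 38955 p65 peaks against 26305 and 26820 in ctrl/LPS. The part of these differences in the p65 values was not tested. Groups of 2 samples were too small for a check of single outlying samples.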

How the results depend on the processing

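The counts of called genes and regions moved with the processing, and the cause was not tested. Among the 8 genes over all antibodies, 1 hr of IL-4 gave 4 calls, 12 at the unadjusted threshold, 11 with a limma trend, and 1 to 4 with 1 sample left out. LPS gave 3 gene calls, and 10 unadjusted, 9 without centring, 6 with missing peaks set 4 times as high, 5 with a peak in every sample, 6 with the upper 50% of peaks, 9 with a trend, and 2 to 4 with 1 sample left out. IL-4 for 24 hr gave 0, and 2 unadjusted, 2 with the higher floor, and 4 with a trend. Pretreatment under LPS gave 0, and 5 unadjusted, 1 with quantile normalization, 2 with the higher floor, 1 with the upper 50% of peaks, 2 with a trend, 1 without intergenic peaks, and 0 to 1 with 1 sample left out. The interaction gave 0, and 1 unadjusted. For regions, 1 hr of IL-4 gave 21, and 88 unadjusted, 33 with a peak in every sample, 34 with the upper 50% of peaks, 51 with a trend, and 9 to 29 with 1 sample left out, lowest without the second untreated H3K27Ac sample. LPS gave 56, and 12 with a peak in every sample, 28 with the upper 50% of peaks, and 47 to 59 with 1 sample left out. IL-4 for 24 hr gave 18, and 33 unadjusted, 7 with the higher floor, 5 with a peak in every sample, 8 with the upper 50% of peaks, and 12 to 21 with 1 sample left out. Pretreatment under LPS gave 29, and 45 unadjusted, 1 with a peak in every sample, 13 with the upper 50% of peaks, and 17 to 30 with 1 sample left out, lowest without an IL-4 PT/LPS p65 sample. A peak in every sample leaves fewer regions to test.

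Directions reversed without intergenic peaks for H3K27Ac at Ski (-0.52) and Smad2 (-2.91) and for RNAPII-pS5 at Ski under LPS (1.07), and without centring for p65 at Tgfb1 under LPS (0.65). Calls were also lost for Tgfbr1 H3K27Ac with the highest peak score (-0.20), for Smad2 p65 under LPS without intergenic peaks (1.10), for Ski RNAPII-pS5 under LPS with quantile normalization (-0.95), the upper 50% of peaks (-2.48), or the highest peak score (-0.33), and for Tgfb1 p65 under LPS with a peak in at least 1 sample (-0.99), no intergenic peaks (-0.87), or the highest peak score (-0.79). H3K27Ac at Smad3 kept its call and moved to -3.71 with the upper 50% of peaks. With the higher floor, calls of the named regions held in 37 cases, were lost with the direction kept in 26, and reversed direction in 6. The directions reversed for RNAPII-pS2 at Tgfbr2 68.5 kb upstream with 24 hr of IL-4 (0.034) and Ski 59.6 kb inside with pretreatment (0.057). For p65 they reversed at Smad7 25.1 kb upstream (-0.41) and Tgfb1 14.4 kb inside (-0.63) under LPS and at Smad2 38.8 kb upstream (-0.046) and Ski 9.8 kb inside (-0.11) with pretreatment.

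With the replicate block, the gene calls numbered 2 for 1 hr of IL-4, 2 for LPS, and 0 for the other comparisons, and the region calls 15, 54, 15, and 25 for 1 hr of IL-4, LPS, 24 hr of IL-4, and pretreatment. Deviations of same-numbered samples correlated between -0.05 and 0.07, so the numbers were not taken to pair the samples. Centring before setting the floor and leaving out the first untreated p300 list were chosen after seeing the data.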
